A study of Homo sapiens with 4 samples.

Results

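The annexins are a family of calcium-dependent proteins that bind acidic phospholipids, chiefly phosphatidylserine, on the inner face of membranes. They share a conserved core that lies on the membrane, and a variable N-terminal tail that carries the binding sites for partner proteins, many of them small S100 proteins. They are known for work in membrane repair, vesicle traffic, plasmin formation at the cell surface and the damping of inflammation, and several have been studied in ovarian tumours for growth, invasion and resistance to platinum drugs. The family described here comprises 10 annexin genes, ANXA1 to ANXA7 without a gap and ANXA9, ANXA10 and ANXA11, and ANXA8 and ANXA13 were not among them. They were selected on their measured ratios in these arrays, with ANXA3 and ANXA10 as the pair that went opposite ways, and the ratios of the knockdown clones over ctrl are therefore given as a description without a test. The 10 genes had 13 probes of 41000 on the array. All 13 were well above background in both channels of every array and passed the filter on dim probes, which left 39152 probes and 16882 named genes in all.

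Total RNA came from A2780s, an established human ovarian adenocarcinoma cell line. The clones labelled sh-G1 and sh-G2 were stably transfected with 1 shRNA against GALNT3, an enzyme that starts mucin-type O-glycosylation, in the vector pSilencer 4.1 puro, and ctrl was 1 clone mock-transfected with that vector, whose cell line the labels write in 2 ways, A2780s and A27803. All 3 clones were selected for 2 weeks in 5 µg/ml puromycin. RNA of each knockdown clone shared 2 arrays with RNA of ctrl in a dye swap, with the knockdown clone in Cy5 in replicate 1 and in Cy3 in replicate 2. With 2 knockdown clones and 1 ctrl clone, an effect of the shRNA and a peculiarity of the ctrl clone cannot be told apart, and the design gives no spread for ctrl, whose 4 levels are repeat measures of 1 clone.

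The targeted gene could not be checked well on these arrays. The 1 probe for GALNT3 was dimmer than all but 0.411% of the probes kept and was well above background in the knockdown channel of 2 of 4 arrays, against 4 of 4 in the ctrl channel. Its log2 ratio of knockdown over ctrl was -0.09 and 0.08 on the sh-G1 arrays and 0.12 and -0.14 on the sh-G2 arrays. The arrays thus did not show less GALNT3 mRNA, but a probe this dim cannot decide whether there was less. The study itself had chosen both clones because its PCR and immunoblots gave significantly less GALNT3 in them than in ctrl. The clones are called knockdown after their labels and that report. The log2 ratios of the 2 arrays of a clone correlated over all probes with Pearson's r of 0.324 for sh-G1 and 0.186 for sh-G2. The arrays with the same dye orientation correlated with 0.613 and 0.732, so much of a ratio on a single array went with the dye. The share of spots well above background was 88.1% to 97.0% in the knockdown channels and 95.9% to 97.6% in the ctrl channels, and 0 spots were saturated. All 4 arrays lay on 1 slide.

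ANXA3 was far lower in both knockdown clones and ANXA10 was moderately higher, and both genes lie on chromosome 4, as does ANXA5. Their promoters are shown because this pair is the contrast within the family. The sequences run from 250 bases before to 50 after the gene start in RefSeq (build GRCh38.p14, plus strand), with every CG dinucleotide and every match to the motifs TATAAA or GGGCGG, on either strand, in capitals.
ANXA3, chr4:78551520-78551819: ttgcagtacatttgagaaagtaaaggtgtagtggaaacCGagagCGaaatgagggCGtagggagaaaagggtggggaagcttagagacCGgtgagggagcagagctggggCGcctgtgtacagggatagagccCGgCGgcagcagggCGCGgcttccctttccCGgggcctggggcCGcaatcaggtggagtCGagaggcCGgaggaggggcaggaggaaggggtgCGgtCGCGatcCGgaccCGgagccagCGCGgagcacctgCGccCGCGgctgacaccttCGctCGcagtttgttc
ANXA10, chr4:168092287-168092586: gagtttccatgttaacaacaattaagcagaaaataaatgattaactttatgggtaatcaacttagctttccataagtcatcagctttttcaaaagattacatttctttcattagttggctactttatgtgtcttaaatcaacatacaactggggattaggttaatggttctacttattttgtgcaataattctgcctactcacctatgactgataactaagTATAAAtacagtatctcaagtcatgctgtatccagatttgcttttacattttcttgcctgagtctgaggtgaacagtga
The ANXA3 window held 25 CG dinucleotides at a GC content of 64.7%, and neither motif. The ANXA10 window held 0 CG dinucleotides at a GC content of 32.7%, and 1 TATAAA that began at base 222 of 300. Over all 35116 promoters of the table the median was 14 CG dinucleotides and 58.7% GC, 11.5% held TATAAA and 45.0% held GGGCGG. All 10 annexin genes matched, with 14 promoters between them. The ANXA1 promoter resembled that of ANXA10, with 0 CG dinucleotides, 37.7% GC and 1 TATAAA, while those of ANXA4, ANXA5 and ANXA7 held 23 to 44 CG dinucleotides and at least 1 GGGCGG. The family did not divide cleanly in this way. The ANXA2 window held 32 CG dinucleotides and both motifs, and the ANXA9 window held 5 and neither motif. The windows of ANXA6 (10 and 25) and of ANXA11 (7, 12 and 30) varied within the gene. These letters describe the windows alone, and no factor or mark was measured here.

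ANXA3 is an annexin first known from placenta and blood cells as an inhibitor of phospholipase A2 and of coagulation. Its normalised log2 level, measured per channel, was 11.16, 10.79, 11.24 and 10.84 in ctrl on the 4 arrays. It was 7.53 and 7.30 in sh-G1 and 7.82 and 7.28 in sh-G2, so every knockdown level lay below every ctrl level and the clones overlapped each other. In bulk RNA, fewer cells with the transcript and less of it per cell cannot be told apart. The log2 ratio of knockdown over ctrl was -3.63 and -3.49 for sh-G1 and -3.42 and -3.56 for sh-G2. The mean of the 2 clones was -3.53 ± 0.05 (SD, n = 2), or 11.5-fold lower, and only 8 of the 39152 probes had a lower mean. The size of this fold depends on the background correction, because the knockdown signal was faint. The raw median intensity was 117 to 179 in the knockdown channel and 1584 to 3203 in the ctrl channel. With normexp and an offset of 0 the mean ratio was 16.2-fold lower, and with the ratio of the scanner software 18.4-fold lower. The study had picked ANXA3 and ANXA10 from these arrays, and its quantitative PCR also gave lower ANXA3 after knockdown.

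ANXA10 is an annexin of the stomach and bladder epithelium with divergent calcium sites in its core. Its normalised log2 level in ctrl was 8.79, 8.89, 8.64 and 8.63 on the 4 arrays. It was 9.93 and 10.10 in sh-G1 and 9.34 and 9.16 in sh-G2, so the knockdown levels lay above those of ctrl without overlap, and sh-G1 lay above sh-G2. The log2 ratio was 1.14 and 1.21 for sh-G1 and 0.70 and 0.53 for sh-G2, with a mean of 0.89 ± 0.40 (SD, n = 2), or 1.86-fold higher. On the second sh-G2 array it stood just under 1.5-fold (0.58 on the log2 scale), and it passed 1.5-fold on every array once the scanner software's ratio or an offset of 0 was used. The log2 ratio of ANXA10 exceeded that of ANXA3 by 4.78 and 4.70 on the sh-G1 arrays and by 4.11 and 4.09 on the sh-G2 arrays, a mean of 4.42 ± 0.45 (SD, n = 2). This contrast between 2 ratios was the basis on which the pair was chosen and has no test.

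ANXA1, the glucocorticoid-induced annexin that acts on formyl peptide receptors, was the third annexin with a mean change of over 1.5-fold. Its normalised log2 level was 9.89, 9.97, 9.94 and 10.14 in ctrl, 9.16 and 9.13 in sh-G1, and 9.70 and 9.45 in sh-G2. The knockdown levels lay below those of ctrl without overlap, with sh-G2 nearer to ctrl. The log2 ratio was -0.73 and -0.84 for sh-G1 and -0.24 and -0.69 for sh-G2, with a mean of -0.63 ± 0.23 (SD, n = 2), or 1.54-fold lower. One array of sh-G2 thus kept ANXA1 from being 1.5-fold lower throughout.

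**Figure D1:**
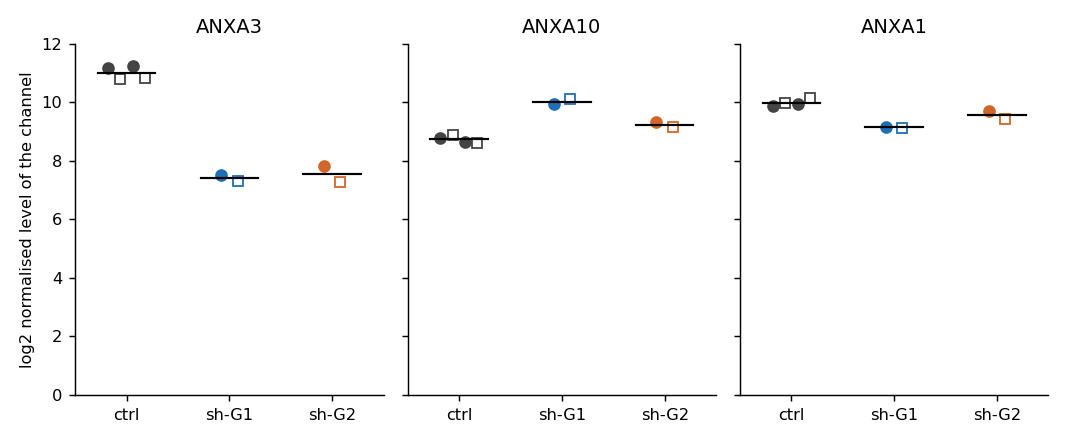
Normalised log2 level (y axis) of ANXA3, ANXA10 and ANXA1 in ctrl, sh-G1 and sh-G2, with 1 point per array channel (filled circles for replicate 1, open squares for replicate 2) and a line at the mean. The knockdown levels of ANXA3 (7.28 to 7.82) lie far below ctrl (10.79 to 11.24), those of ANXA10 lie above ctrl with sh-G1 highest, and those of ANXA1 lie below ctrl.

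The remaining annexins, 10 probes of 7 genes, had mean log2 ratios between -0.25 and 0.20. ANXA2, which joins S100A10 into a complex that gathers plasminogen and its activator at the cell surface, had 3 probes. The brightest gave log2 ratios of 0.02 and 0.08 for sh-G1 and -0.20 and 0.17 for sh-G2, and the means of the 3 probes were 0.02, 0.06 and 0.14, each with 1 of 4 arrays below 0. The probe with 0.14 was far dimmer, brighter than 15.4% of all probes kept, against 98.0% and 97.5% for the others. Transcripts of ANXA2 pseudogenes are near-identical to ANXA2 and may bind the same probes, so the probe values are uncertain as a measure of ANXA2 alone. The probes named for ANXA2P1 and ANXA2P3 had means of 0.06 and 0.05.

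ANXA5, the annexin used to stain exposed phosphatidylserine, had log2 ratios of 0.38 and 0.19 for sh-G1 and 0.23 and -0.0039 for sh-G2, with a mean of 0.20 ± 0.12 (SD, n = 2). ANXA4, an epithelial annexin of the plasma membrane and Golgi, had a mean of 0.19 ± 0.06 (SD, n = 2), with -0.02 and 0.48 for sh-G1 and 0.03 and 0.27 for sh-G2. Both means were small beside the distance between single arrays.

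ANXA11, which links RNA granules to lysosomes and binds PDCD6 and S100A6, had 2 probes. The dimmer probe was below 0 on all 4 arrays (-0.43, -0.06, -0.32 and -0.20; mean -0.25 ± 0.01, SD, n = 2), and its knockdown levels did not overlap those of ctrl. The brighter probe changed side with the dye (sh-G1 0.05 and -0.60, sh-G2 0.14 and -0.20) and had a mean of -0.15 ± 0.18 (SD, n = 2). The 2 probes of ANXA11 thus differed on whether the gene lay below ctrl on every array.

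ANXA6, an annexin with an enlarged core that takes part in endocytosis and cholesterol traffic, followed the dye more than any other annexin. Its log2 ratio was -0.54 in sh-G1 and -1.09 in sh-G2 where the knockdown clone carried Cy5, and 0.74 and 0.66 where it carried Cy3. The dye exchange cancelled this to a mean of -0.06 ± 0.23 (SD, n = 2). The part of the ratio that went with the dye was -0.76 for ANXA6, against a median size of 0.13 over the annexin probes and 0.12 over all probes. ANXA7, a GTP-binding annexin of secretory vesicles, and ANXA9, whose core lacks intact calcium sites, also changed side with the dye, ANXA7 in the same direction as ANXA6 and ANXA9 in the opposite one, with means of -0.06 and 0.04. A ratio that changed side with the dye in both clones was seen for 4 of 13 annexin probes (ANXA6, ANXA7, ANXA9 and the brighter ANXA11 probe) and for 40.5% of all probes.

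**Figure D2:**
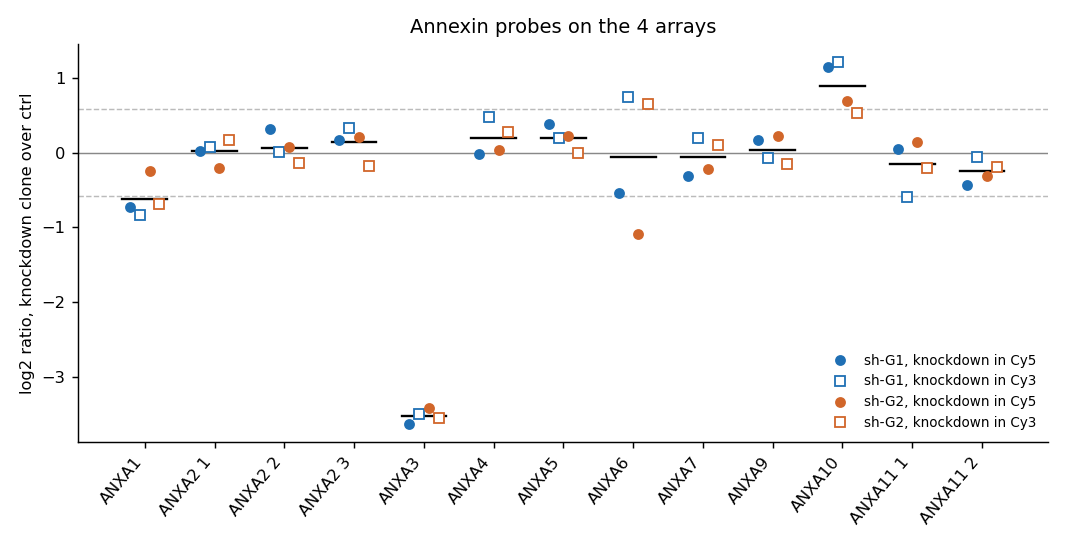
Log2 ratio of knockdown clone over ctrl (y axis) of the 13 annexin probes on the 4 arrays, probes of 1 gene numbered from the brightest. Black lines mark the mean of the 2 clones and dashed lines 1.5-fold. ANXA3 stands alone near -3.5, ANXA10 is above 0 and ANXA1 below 0 on all 4 arrays, and the ANXA6 points split by dye.

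Counted by rules, 1 of 13 annexin probes (ANXA3) was at least 1.5-fold lower on all 4 arrays, a rule that 0.919% of all probes met, and 0 of 13 were at least 1.5-fold higher, a rule that 0.23% met. The ratio was below 1 on all 4 arrays for 3 annexin probes (ANXA1, ANXA3 and the dimmer ANXA11 probe) against 9.04% of all probes, and above 1 on all 4 for ANXA10 alone against 6.21%. The same 3 probes had all 4 knockdown levels below all 4 ctrl levels, as had 4.35% of all probes, and ANXA10 had them all above, as had 2.47%. Since the annexins were chosen on this contrast, these shares are given for scale only. The median log2 ratio over the 13 probes was 0.02, beside -0.0037 over all probes.

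The difference between sh-G2 and sh-G1 was not used to choose the annexins, and limma tested it across the 4 arrays with a dye term. None of the 13 probes passed at an adjusted p under 0.05, where 0.123% of all probes did, and 1 annexin probe, that of ANXA10, had an unadjusted p under 0.05, as had 7.45% of all probes. For ANXA10 the log2 ratio of sh-G2 was lower than that of sh-G1 by 0.56 (difference -0.56, 95% interval -0.84 to -0.28, adjusted p = 0.246 with limma), in both dye orientations. For ANXA1 the ratio of sh-G2 lay nearer to 0 by 0.32 (95% interval -0.0094 to 0.65, adjusted p = 0.687 with limma). For ANXA3 the difference was 0.08 (95% interval -0.22 to 0.37, adjusted p = 0.961 with limma), so 4 arrays leave room for differences up to those bounds. The 2 arrays of a clone may hold 1 RNA extract, and the test then covers the spread between arrays only.

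**Figure D3:**
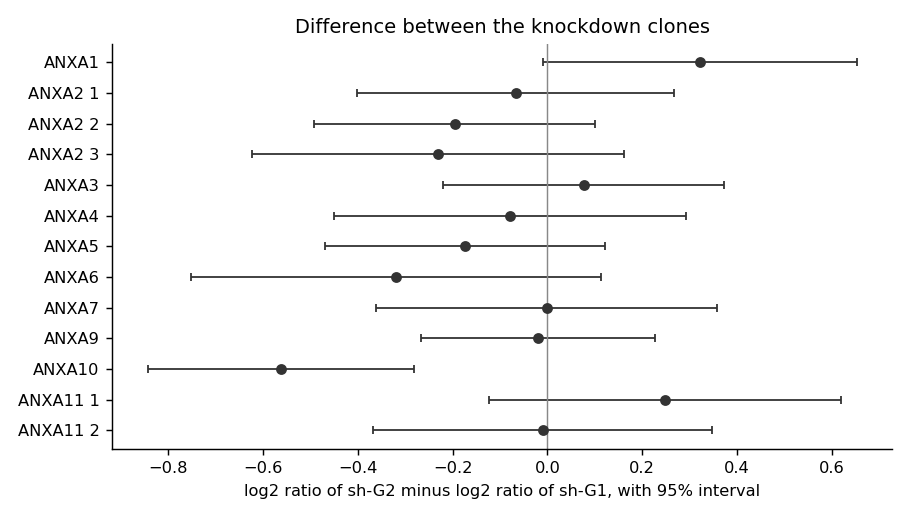
Difference between the knockdown clones for each annexin probe, as the log2 ratio of sh-G2 minus that of sh-G1 (x axis), with its 95% interval from limma. The interval of ANXA10 (-0.84 to -0.28) lies wholly below 0 and those of the other 12 probes include 0.

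Genes whose proteins bind annexins or act with them formed a list of 19, all measured. In this list 1 gene passed limma lower in the knockdown clones and 0 passed higher, where 0.906% and 0.184% of all genes passed by their brightest probe. By the rule of 1.5-fold on all 4 arrays 1 was lower and 1 higher, beside 1.29% and 0.355% of all genes. The median log2 ratio of the list was -0.00018, beside -0.0039 over all genes.

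S100A11, the calgizzarin that binds the tail of ANXA1, was the gene that passed limma and the 1.5-fold rule lower. Its brighter probe gave log2 ratios of -1.26 and -1.57 for sh-G1 and -1.54 and -1.66 for sh-G2. The mean was -1.51 ± 0.08 (moderated SE of limma, n = 2, adjusted p = 0.0248 with limma). A moderated SE draws on the spread of all probes, so it cannot be set beside the SD given for the annexins. Its other probe was lower still, with -2.81, -3.03, -3.06 and -2.83 on the 4 arrays, so the probes shared the direction and not the size. S100A11 was among the genes that the study itself had picked from these arrays and is no independent evidence of a direction. If ctrl was given the spread of the knockdown clones, its adjusted p was 0.166 with limma. Under that setting 0 probes of the whole array passed.

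The other S100 ligands had smaller ratios or ratios above 0. S100A10, the partner of ANXA2, had log2 ratios of 0.20 and -0.29 for sh-G1 and 0.12 and -0.42 for sh-G2, a mean of -0.09, and changed side with the dye. S100A6, calcyclin, a ligand of ANXA2, ANXA6 and ANXA11, had a mean of -0.00013, with -0.30 and 0.28 for sh-G1 and -0.07 and 0.09 for sh-G2. S100A4, metastasin, named after its values were seen, was above 0 throughout, with 0.31 and 0.48 for sh-G1 and 1.5 and 1.38 for sh-G2, and did not pass limma (adjusted p = 0.348). PDCD6, the calcium sensor that binds ANXA7 and ANXA11, gave 0.02 and 0.20 for sh-G1 and -0.28 and -0.27 for sh-G2. SRI, sorcin, which binds ANXA7, had a mean of 0.14 by its brighter and 0.15 by its dimmer probe.

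Among the receptors and enzymes, FPR1, FPR2 and FPR3, the formyl peptide receptors of ANXA1, had means of 0.03, -0.00018 and 0.03. PLA2G4A, the cytosolic phospholipase A2 that ANXA1 inhibits, was at least 1.5-fold higher on all 4 arrays, with log2 ratios of 0.73 and 1.34 for sh-G1 and 1.96 and 1.54 for sh-G2. Its mean was 1.39 ± 0.20 (moderated SE of limma, n = 2, adjusted p = 0.129 with limma), which did not pass. The means of the clones were 1.04 for sh-G1 and 1.75 for sh-G2, wider apart than that SE conveys. PLA2G4A too had been picked by the study from these arrays. PRKCA, named after its values were seen, was below 0 on all 4 arrays by its brighter probe. Its mean was -0.53 and did not pass limma (adjusted p = 0.068), and its dimmer probe had a mean of -0.01. The 4 plasmin genes PLAT, PLG, PLAU and PLAUR had means between -0.15 and 0.05.

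**Figure D4:**
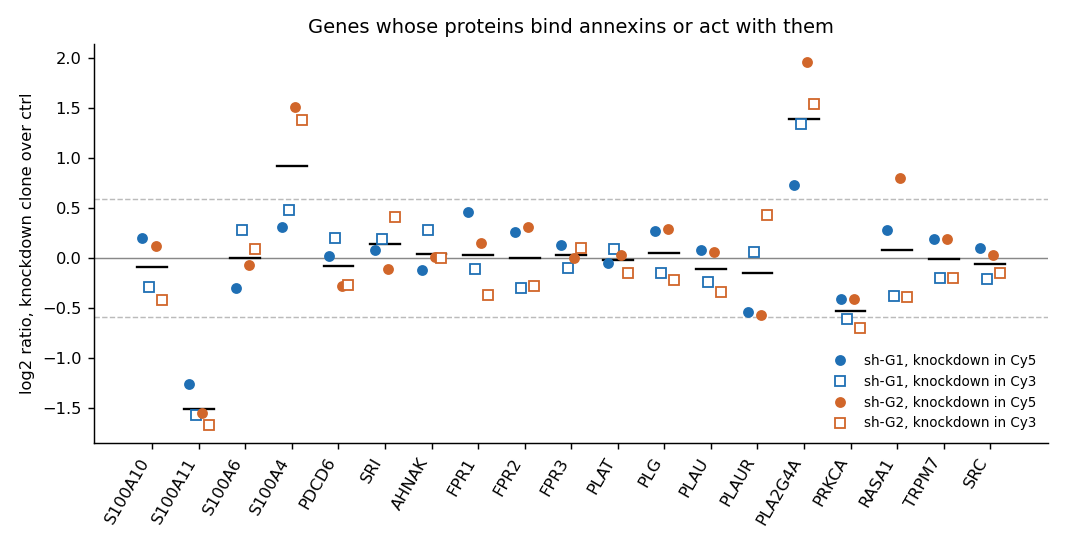
Log2 ratio of knockdown clone over ctrl (y axis) of the 19 genes whose proteins bind annexins or act with them, by the brightest probe of each, on the 4 arrays. Black lines mark the mean of the 2 clones and dashed lines 1.5-fold. S100A11 lies below -1.2 and PLA2G4A above 0.7 on every array.

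In a list of 13 membrane repair genes, such as dysferlin and the ESCRT proteins that close wounds in the plasma membrane, 0 passed limma in either direction by their brightest probe, 2 had an unadjusted p under 0.05, where 15.3% of all genes had, and the median log2 ratio was 0.04. CAV1, caveolin-1 of membrane caveolae, named after its values were seen and picked by the study from these arrays, had 2 probes that differed. The brighter had a mean of -0.40 (adjusted p = 0.133 with limma), and the dimmer was lower on all 4 arrays, with -0.95 and -0.81 for sh-G1 and -0.68 and -1.08 for sh-G2 (mean -0.88, adjusted p = 0.0328 with limma). With ctrl given the spread of the knockdown clones the dimmer probe did not pass either (adjusted p = 0.218 with limma), nor did any other probe of the array. Of 18 genes that move or read phosphatidylserine, the lipid that annexins bind, 15 were measured, 0 passed limma by their brightest probe, 5 had an unadjusted p under 0.05, beside the same 15.3% of all genes, and the median was 0.03. By the rule of 1.5-fold on all 4 arrays, applied to the brightest probe, 0 genes of either list were changed. The mean log2 ratios spanned -0.40 to 0.54 in the first list and -0.40 to 0.62 in the second.

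Among the genes whose 4 log2 ratios lay nearest to those of ANXA3, of 16872 compared, were FLRT3, UCHL1, ARMCX2 and NAP1L3, at Euclidean distances of 0.615 to 1.11 over the 4 arrays. Their means lay between -3.82 and -3.67, all a little below that of ANXA3. FLRT3 is a cell adhesion protein and UCHL1 a neuronal deubiquitinase. Nearest to ANXA10 were GALNT4, PDZRN3, LTN1, CCDC178 and MLLT11, at distances of 0.237 to 0.433 and means of 0.71 to 0.99. GALNT4, at 1.05 and 1.1 for sh-G1 and 0.51 and 0.48 for sh-G2, is a glycosyltransferase of the same family as GALNT3. Such likeness over 4 arrays is a description, since the 4 arrays share 1 ctrl clone and a slide. FLRT3, UCHL1, ARMCX2, NAP1L3 and PDZRN3 were among the genes the study had picked from these arrays.

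The nearest genes along chromosome 4 were read beside the 2 annexins. Of the 10 neighbours of ANXA3 with a probe kept, 0 passed limma and 4 had an unadjusted p under 0.05, beside 15.3% of all genes. CCNG2, an atypical cyclin linked to cell cycle arrest, was at least 1.5-fold lower on all 4 arrays (-1.55, -1.12, -0.80 and -1.07), as were 1.29% of all genes. The study had picked CCNG2 from these arrays. FRAS1, a basement membrane protein next to ANXA3, had a mean of -0.49 and was below 0 on all 4, MRPL1 was above 0 on all 4, and the other 7 changed side. The lowest mean among the neighbours was -1.13, beside -3.53 for ANXA3.

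Of the 10 neighbours of ANXA10, 0 passed limma and 6 had an unadjusted p under 0.05, beside 15.3% of all genes. In 6 the ratio was above 1 on all 4 arrays, a rule met by 6.21% of all probes, a share that was not counted by gene. SPOCK3, a matrix proteoglycan gene next to ANXA10, gave 0.63 and 0.52 for sh-G1 and 0.80 and 0.64 for sh-G2. TLL1, a tolloid-like metalloproteinase and the next gene on that side, gave 0.72 and 0.76 for sh-G1 and 1.66 and 1.1 for sh-G2. It had been picked by the study from these arrays. The other 4 were KLHL2, CPE, PALLD and SH3RF1, with means of 0.27 to 0.49. The median log2 ratio of the 10 was 0.30, against -0.05 for the neighbours of ANXA3.

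**Figure D5:**
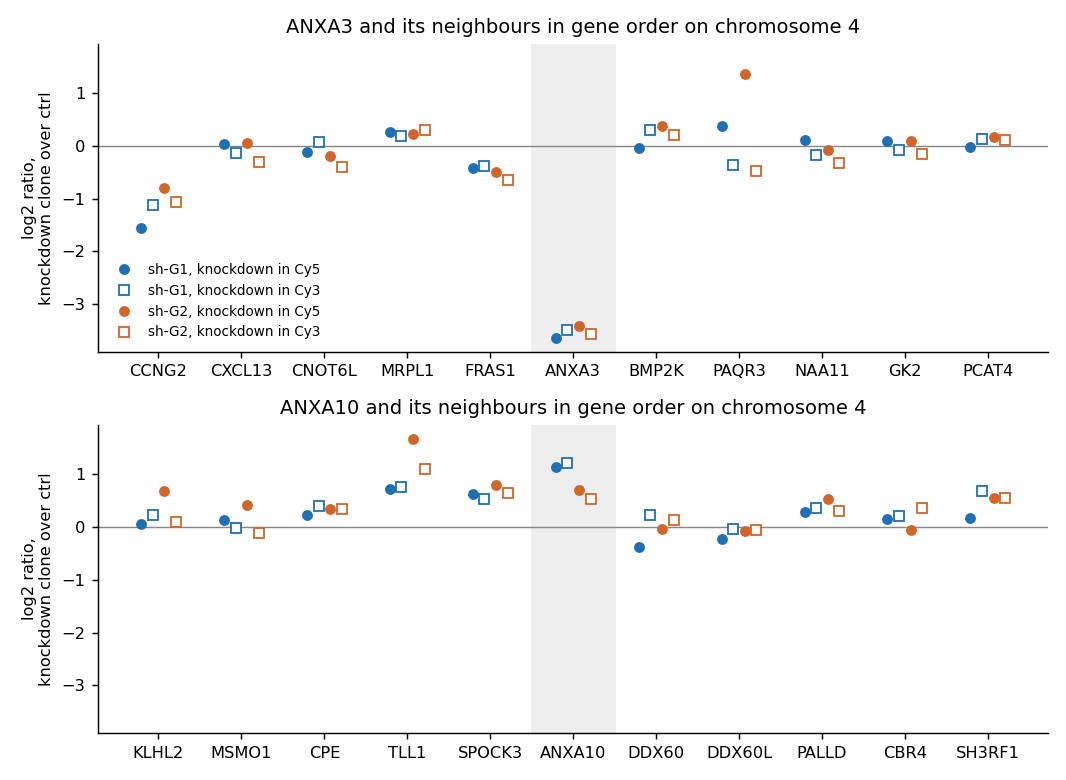
Log2 ratio of knockdown clone over ctrl (y axis) of ANXA3 and ANXA10 (grey bands) and of the 5 named genes with a kept probe on each side, in gene order. ANXA3 lies far below its neighbours, while SPOCK3, TLL1 and 4 other neighbours of ANXA10 lie above 0 on all 4 arrays.

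Markers of cell types were read beside these results. All 9 epithelial markers were well above background in every channel. Of them 2, KRT8 and KRT18, passed limma lower in the knockdown clones by their brightest probe, as did 0.906% of all genes. The others did not pass. EPCAM had a mean log2 ratio of -0.33, and KRT7, KRT19, CDH1, PAX8, MUC16 and WT1 had means between -0.05 and 0.04. The dimmer KRT8 probe did not pass (mean -0.44, adjusted p = 0.151 with limma), while each KRT18 probe did. With ctrl given the spread of the knockdown clones neither brightest probe passed (adjusted p = 0.210 and 0.240 with limma), nor did any other probe of the array. Of the mesenchymal markers, VIM had a mean log2 ratio of 0.0064 and CDH2 one of -1.50, at least 1.5-fold lower on all 4 arrays but not past limma (adjusted p = 0.180). KRT8, KRT18, CDH2 and LUM were among the genes the study had picked from these arrays. Well above background in every channel were also all 3 leukocyte markers and 2 of 3 endothelial markers, and the mean ratios of these 2 lists lay between -0.07 and 0.04, so the detection mark alone does not tell cell types apart on these arrays. Of 3 fibroblast markers, 2 had a probe kept, DCN and LUM. Both lay below ctrl in both clones, as ANXA3 did, with mean log2 ratios of -3.17 and -3.31, and neither passed limma. The mean log2 level of the 2 was 13.5 to 13.6 in ctrl and 9.01 to 11.6 in the knockdown channels. Their part in the ANXA3 result was not tested. On the arrays the clones differed, with sh-G2 above sh-G1 by 2.15 for DCN and 2.53 for LUM (adjusted p = 0.0300 and 0.0181 with limma). For ANXA3 the same difference was 0.08 (adjusted p = 0.961 with limma). Whether the clone differences of DCN and LUM depart from that of ANXA3 was not tested. With 2 dye-swapped arrays a clone, these p-values cover the spread between arrays and not that between cultures.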

How the data were processed

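The authors scanned the arrays and deposited, per the file headers, the median intensity and the median local background of each spot in both channels, and the scanner software's log10 ratio (Cy5 over Cy3). The labels name Feature Extraction 8.5.1.1 and the headers 10.5.1.1. In the series matrix, the deposited log10 values equal that ratio for 3 arrays, and 1 column, equal to its error, was not used. Background was corrected with normexp (offset 50) and ratios were normalised by loess within arrays, without control spots and spots marked as outliers, and turned to knockdown over ctrl. A probe's spots were averaged. Probes for which either channel stood well above background on each array stayed in. Channel levels were scaled between arrays with Aquantile. An offset pulls ratios of faint spots towards 0.

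The arrays of a clone were averaged, and the 2 clones were tested against 0 with limma 3.58.1 (eBayes with trend, R 4.3.3, statmod 1.5.0) and Benjamini-Hochberg adjustment over 39152 probes at 0.05. This leaves out the spread of ctrl. Clones were compared on 4 arrays with a dye term, which is also the replicate number. The numbers pair arrays by dye orientation, from the labels. Of 41000 probes, 25398 were named through RefSeq (GRCh38.p14), used for names and gene order. The array's design build is older, so probe positions are not given. The number of arrays limits the precision. P-values measure the spread between these samples, which may be technical. The steps were tested on simulated data.

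The annexins, the gene lists and the tests were chosen with earlier results of these data known. Named were all annexins, GALNT3, list genes past limma or 1.5-fold on all 4 arrays, S100A10, S100A11, S100A6, PDCD6 and SRI, the 5 genes nearest in ratio (1 of them is not reported here) and the 5 neighbours on each side of ANXA3 and ANXA10. FPR1, FPR2, FPR3, PRKCA, PLAT, PLG, PLAU, PLAUR, S100A4, CAV1 and the markers were named by role after their values were seen. Alternatives were other background corrections, centring, filters and sources, arrays or clones left out, other thresholds, a random block, ctrl with the spread of the clones, and no dye term.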

Additional observations from a re-analysis of the deposited data

Results flagged for a closer look

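PDCD6 lay above 0 on both sh-G1 arrays and below 0 on both sh-G2 arrays, and the log2 ratio of sh-G2 minus that of sh-G1 was -0.39 (adjusted p = 0.500 with limma). DYSF (-0.15) and GAS6 (-0.69) likewise lay above 0 in sh-G1 and below 0 in sh-G2, and ATP8A1 (0.41) the other way round, and the difference of these 3 did not pass limma either. The fibroblast markers DCN and LUM differed between the clones by 2.15 and 2.53, both past limma at an adjusted p under 0.05, while both clones lay below ctrl. These tests cover the spread between the 2 dye-swapped arrays of a clone only.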

How the results depend on the processing

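Under all alternatives tried ANXA3 stayed at least 1.5-fold lower on the arrays used, so 1 annexin probe or more met that rule. The count was 2, with ANXA1, when the mean of the 2 clones replaced every array, and 1 to 2 with an array or a clone left out (2 without sh-G2 replicate 1 or without sh-G2). The count of annexin probes at least 1.5-fold higher was 0 and became 1, ANXA10, with the software's ratio, with an offset of 0, with the series matrix values and with the mean of the 2 clones, and was 0 to 1 with an array or a clone left out. The median log2 ratio of the annexin probes was -0.067 to 0.052 with an array or a clone left out, its low end without sh-G2 replicate 2. The excess of ANXA10 over ANXA3 was 5.31 with the software's ratio, 5.00 with an offset of 0 and 5.26 with the series matrix values. With those values the means of ANXA4 (-0.11), ANXA7 (0.06) and ANXA9 (-0.014) changed sign. The series matrix values lack sh-G1 replicate 2, which leaves the dyes of sh-G1 unbalanced. With the software's ratio on all 4 arrays the means of ANXA4 (0.14), ANXA7 (-0.035) and ANXA9 (0.022) kept their sign.

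Over the whole array 274 probes passed limma lower and 54 higher in the knockdown clones. These counts were 413 and 120 with the software's ratio, 794 and 215 with the series matrix values, 1721 and 848 with the clone as a random block, whose estimated correlation was negative (-0.656), and 0 and 0 with ctrl given the spread of the clones. They ran from 322 to 867 lower and from 56 to 339 higher with an array left out, which leaves the dyes unbalanced. Of the list genes 1, S100A11, was called lower and 0 higher. With the software's ratio 2 were lower, S100A11 and PRKCA. With the series matrix values 2 were lower and 1 higher, with the random block 4 and 3, and with any kept probe 2 were lower. With ctrl given the spread of the clones 0 were lower. With an array left out 1 to 2 were lower and 0 to 3 higher, the 3 without sh-G2 replicate 1. The adjusted p of S100A11 ran from 4.2e-05 to 0.166 over the alternatives.

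The dye term is the replicate block, since replicate number and dye orientation coincide. With no replicate block 5 probes differed between sh-G2 and sh-G1 in place of 48, and the adjusted p of ANXA10 was 1.00. Leaving out a clone leaves no test. Causes were not tested.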

Other observations

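ANXA2R, named for a receptor of ANXA2 and picked here after its values were seen, had log2 ratios of -1.29 and -1.33 for sh-G1 and -0.54 and -0.63 for sh-G2, with a mean of -0.95. Its 2 clones thus stood in the same order as those of ANXA10 and ANXA1, with sh-G1 farther from ctrl.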
